A study of Homo sapiens with 70 samples.

Results

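The TIM and TOM genes encode the translocases through which mitochondria import proteins. They were taken here as every protein-coding gene whose symbol begins with TIMM or TOMM in the deposited table, which gave 27 of 78932 genes and of 20116 protein-coding genes. Of 52 names with those letters, 22 pseudogenes and 3 long non-coding RNAs were left out. By role the members were 4 receptor genes of the outer membrane (TOMM20, TOMM22, TOMM70 and TOMM20L), 2 channel genes (TOMM40 and TOMM40L), 3 small TOM subunits (TOMM5, TOMM6 and TOMM7), 7 genes of the TIM23 complex, 2 of the TIM22 complex, 6 small TIM chaperones, 2 genes of other function (TOMM34 and TIMMDC1) and the readthrough TIMM23B-AGAP6. 26 of the 27 passed the filter on low counts in each fit. TOMM20L had 35 counts over all libraries and was not tested.

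The cells were MIA PaCa-2, a human pancreatic ductal adenocarcinoma line, in a form that the study's design text describes as resistant to the drug sotorasib. All the lines held dCas9-KRAB, in which a Cas9 that cannot cut is joined to a repressor of transcription, and doxycycline (DOX) switches it on. The lines carried the guide sgZBTB11 #1 or sgZBTB11 #2, both against the zinc-finger gene ZBTB11, or the control guide sgNS. Each line received DOX, or DMSO as the vehicle, for 5 hr, 1 day, 3 days or 5 days, and poly(A) RNA was sequenced. The 24 groups held 3 libraries each, except that sgZBTB11 #1 with DMSO at day 5 and sgNS with DMSO at day 1 held 2. Each guide was represented by 1 line, and the labels do not say whether a line was a clone or a pool, or whether replicates were separate cultures, so the p-values cover the spread among the libraries alone, and that spread may be technical. Time of treatment and day of collection cannot be told apart.

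Almost all mitochondrial proteins are made in the cytosol and cross the outer membrane through the TOM complex, in which receptors bind precursors and TOMM40 forms the pore. Precursors with a presequence then pass to TIM23, which works with the HSP70 motor of the matrix. Carrier proteins of the inner membrane are escorted across the intermembrane space by the small TIM chaperones to TIM22.

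The 70 libraries held 12068842 to 20627642 estimated counts each. Transcripts of mitochondrial DNA took 13.1%, 10.96%, 19.8% and 30.7% of counts on average at 5 hr, day 1, day 3 and day 5, and the members took 0.242%, 0.224%, 0.160% and 0.149% of the remaining, nuclear counts at the same times. DOX lowered ZBTB11 from day 1 on in sgZBTB11 #2 (log2 change -0.59, -0.79 and -0.90 at days 1, 3 and 5) and in sgZBTB11 #1 (-0.28, -0.45 and -0.42), while sgNS gave -0.11, -0.06 and -0.15, of which the last also passed (adjusted p = 0.0323). At 5 hr sgZBTB11 #1 gave -0.00, sgZBTB11 #2 -0.17 (0.00723) and sgNS 0.17 (0.00297). Of the line's markers, KRT8, KRT18 and VIM had group means of at least 340 TPM (a level scaled for transcript length and library). CDKN2A, which is known to be deleted in MIA PaCa-2, was listed at 0 TPM in every group. The 12 markers of blood, endothelial, fibroblast, acinar and islet cells reached at most 1.15 TPM (CD14), and INS and GCG were at 0.

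Levels between genes were compared in TPM, which corrects for transcript length. In DMSO libraries at 5 hr the small TOM subunits, which hold the TOM complex together, were the most abundant members. TOMM7 averaged 921 ± 66.7 TPM, TOMM6 376 ± 19.3 TPM and TOMM5 288 ± 7.33 TPM (SD, n = 9 libraries of 3 lines). The channel gene TOMM40 stood at 102 TPM, and its relative TOMM40L at 4.24 TPM. Of the receptors, TOMM20 averaged 65.5 TPM, TOMM22, the central receptor, 45.1 TPM, and TOMM70, which binds carrier precursors, 14.4 TPM. TOMM20L reached at most 0.47 TPM in a DMSO library, at day 5.

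In the TIM23 complex, the channel subunit TIMM23 and the presequence receptor TIMM50 each averaged 114 TPM at 5 hr, and the channel partners TIMM17B and TIMM17A 82.7 and 67.2 TPM. TIMM44, which anchors the HSP70 motor, and TIMM21, which contacts the TOM complex, were at 50.1 and 49.6 TPM. The TIM22 genes were lower, with 9.08 TPM for the channel gene TIMM22 and 14.8 TPM for TIMM29. The small TIM chaperones ran from 140 TPM (TIMM8B) through TIMM13, TIMM9 and TIMM10 (93.0, 92.5 and 62.2 TPM) to TIMM8A and TIMM10B (14.8 and 10.8 TPM). Neighbours such as TIMM23 and TIMM50, TIMM13 and TIMM9, and TIMM8A and TIMM29 differed by less than 1 SD.

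**Figure D1:**
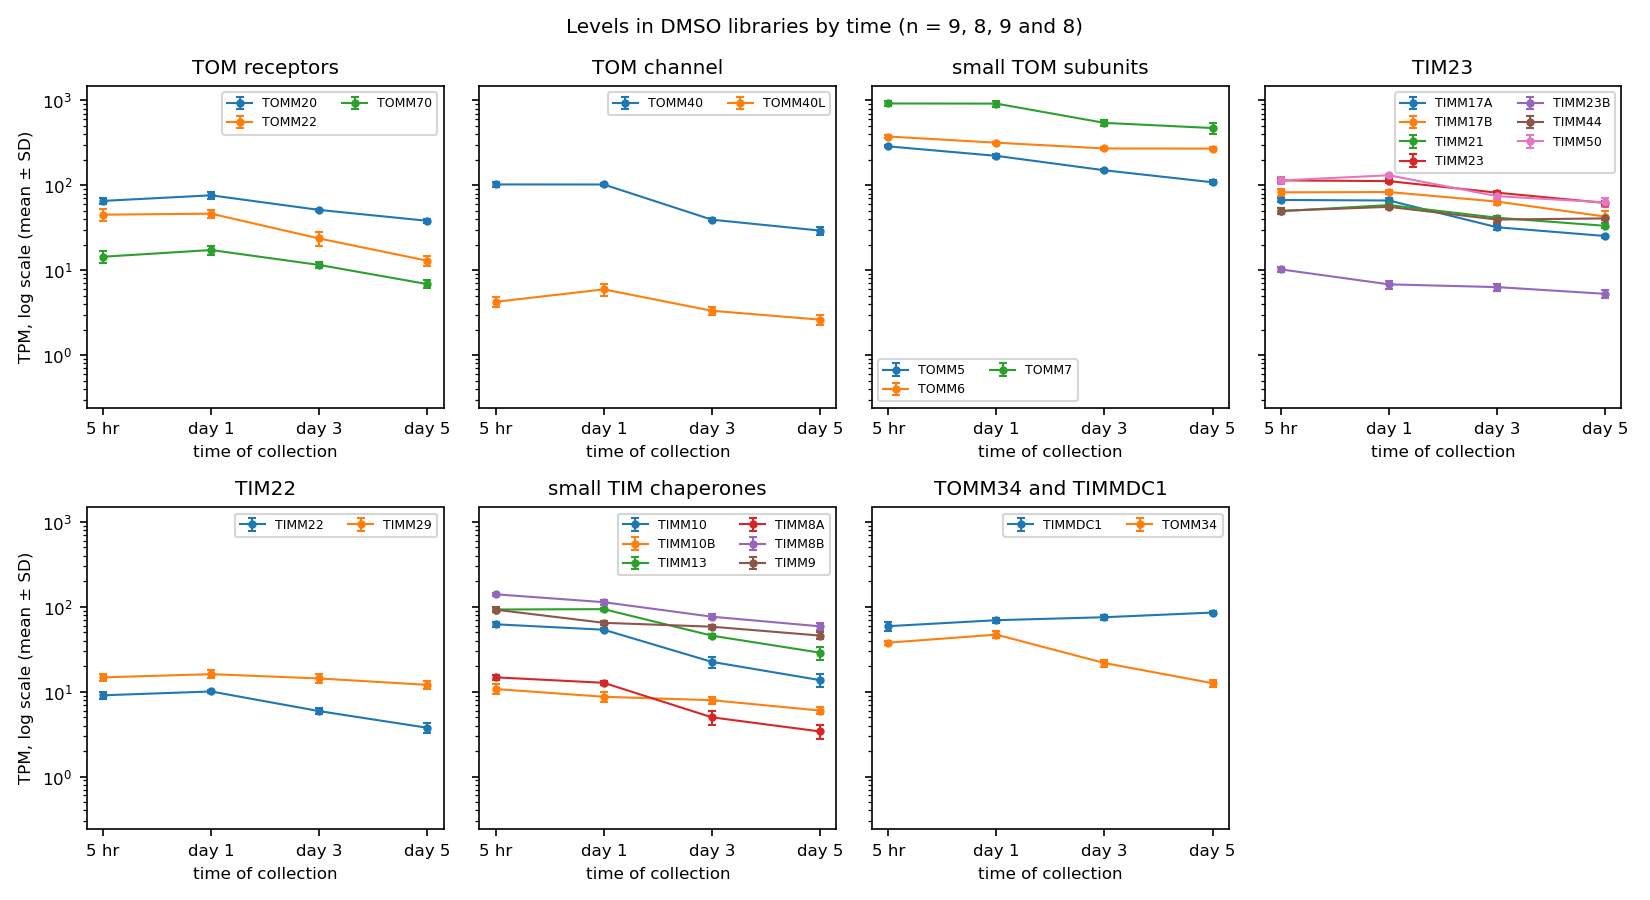
Mean TPM of the members in DMSO libraries (log axis) against time of collection, 1 panel per role, with bars for the SD over 9, 8, 9 and 8 libraries. TOMM7 stands highest at each time (921, 917, 544 and 473 TPM), and TOMM40 has 102, 102, 39.4 and 29.3 TPM. TIMMDC1 is an exception on this scale, with 59.2, 69.6, 75.4 and 85.6 TPM.

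The DMSO libraries showed a fall of nearly the whole import system between day 1 and day 3. Tests used edgeR's quasi-likelihood fit over all genes with Benjamini-Hochberg adjustment, at 0.05. In day 3 libraries against day 1 libraries 25 of 26 members were lower and 0 were higher, where 38.4% of all 17598 genes tested were lower and 79.8% were called in either direction. The members' median log2 change was -0.68, against 0.05 for all genes. Receptors (3 of 3), channel genes (2 of 2), small TOM subunits (3 of 3), TIM23 genes (7 of 7), TIM22 genes (2 of 2), TOMM34 and TIMMDC1 all fell, as did 5 of 6 small TIM chaperones. In these bulk samples a change in the makeup of the cells and a change of RNA per cell cannot be told apart, and the share of mitochondrial transcripts rose over the same interval. Its part in the result was not tested.

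TOMM40 had 58.2 to 66.3 CPM (counts scaled to library size with TMM; median 62.5) in the 9 DMSO libraries of day 3, against 147 to 174 CPM (median 161) in the 8 of day 1. The ranges lay far apart, and the log2 change was -1.37 (SE 0.03, adjusted p = 8.94e-46). TIMM10, which forms a chaperone ring with TIMM9, had 7.95 to 10.9 CPM (median 9.81) at day 3, against 23 to 29.2 CPM (median 23.8) at day 1. Its log2 change was -1.37 (SE 0.05, 8.69e-33), whereas its partner TIMM9 fell by only 0.20 (SE 0.03, 2.31e-07). TIMM8A and TIMM13, which form the other chaperone ring, fell by 1.28 (SE 0.06) and 1.21 (SE 0.03). TIMM10B, the small TIM that docks on TIM22, did not pass (-0.07, SE 0.05, adjusted p = 0.179).

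Paralogous subunits differed in size of change. TIMM17A fell by 1.00 (SE 0.03) and TIMM17B by 0.35 (SE 0.03) between day 1 and day 3. TOMM40L fell by 0.78 (SE 0.06). The difference between paralogs was not tested. TIMM23B-AGAP6 had the lowest value of all members, -1.68 (SE 0.41, adjusted p = 0.000721), on 0 to 2.94 CPM at day 3 against 2.26 to 9.36 CPM at day 1. It is a readthrough of TIMM23B, itself a near-identical copy of TIMM23, and AGAP6, so the split of reads between these 3 genes is uncertain.

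Between 5 hr and day 1 the change was smaller and mixed, and at day 5 the fall went on in most members. At day 1 against 5 hr, 4 members were higher and 18 lower, where 67.2% of all genes were called (34.1% higher and 33.1% lower). All 6 small TIM chaperones and all 3 small TOM subunits fell, TIMM9 with 33.2 to 42.03 CPM (median 35.7) at day 1 against 55.3 to 65.2 CPM (median 57.7) at 5 hr (log2 change -0.66, SE 0.03, adjusted p = 2.08e-27). TIMM23B, with 11.4 to 15.8 CPM (median 13.3) at day 1 against 22.2 to 26.2 CPM (median 24.8) at 5 hr, changed by -0.82 (SE 0.05, 9.98e-22), and TIMM23B-AGAP6 by -0.70 (SE 0.30, 0.0471), on 2.26 to 9.36 CPM against 3.07 to 8.85 CPM. For TIMM9 and TIMM23B the times did not overlap, and for TIMM23B-AGAP6 they did. The call of the readthrough was lost in 20 of the 34 fits that left out 1 library (adjusted p up to 0.130) and under 8 of 12 alternative settings.

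The members that rose at day 1 were TOMM40L, TIMMDC1, TIMM44 and TOMM34. TOMM40L had 11.2 to 15.9 CPM (median 13.5) at day 1 against 10.7 to 12.6 CPM (median 11.7) at 5 hr and changed by 0.21 (SE 0.05, adjusted p = 0.000373). TIMMDC1, an assembly factor of respiratory complex I, had 63.5 to 67.9 CPM (median 66.3) against 46.8 to 65.2 CPM (median 62.3) and changed by 0.16 (SE 0.03, 5.54e-07). TIMM44 had 71.7 to 85.0 CPM (median 76.0) against 68.9 to 80.1 CPM (median 73.6) and changed by 0.10 (SE 0.03, 0.000957). The ranges of the times overlapped for all 3. On the TPM scale the median gene was itself 0.13 higher at day 1, and 9 members were higher and 8 lower. With each library centred on its median gene it was 2 and 17, and TIMM44 was then lower, at -0.047.

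At day 5 against day 3, 2 members were higher and 19 lower, where 65.3% of all genes were called (30.8% higher and 34.6% lower). TOMM34, a cytosolic co-chaperone of HSP70 and HSP90, had 23.4 to 28.8 CPM (median 26.2) at day 5 against 34.4 to 42.1 CPM (median 38.3) at day 3, a log2 change of -0.56 (SE 0.03, adjusted p = 1.49e-20). TIMM10 had 5.52 to 8.31 CPM (median 6.58) against 7.95 to 10.9 CPM (-0.55, SE 0.06, 3.45e-11). TOMM70 had 28.8 to 31.01 CPM (median 29.8) against 37.9 to 44.8 CPM (median 41.9), a change of -0.50 (SE 0.03, 3.59e-20). The times overlapped for TIMM10 and not for TOMM34 or TOMM70. TIMMDC1 rose by 0.29 (SE 0.03, 3.18e-13), with 56.7 to 71.96 CPM (median 67.1) against 49.7 to 57.99 CPM (median 52.6), and TOMM6 by 0.24 (SE 0.02, 1.17e-12), with 108 to 135 CPM (median 120) against 96.9 to 115 CPM (median 99.0). On TPM 1 member was higher and 22 lower, with the median gene itself 0.18 lower at day 5.

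Import partners that carry other names were 28 genes such as the motor and the receptors' helpers. They were lower in 25 cases and higher in 1 at day 3 against day 1 (median log2 change -0.45). Of all genes 38.4% were lower and 79.8% were called in either direction. The partners were higher in 9 and lower in 11 cases at day 1 against 5 hr, near the 34.1% and 33.1% of all genes. At day 5 against day 3 they were higher in 3 and lower in 19 (30.8% and 34.6% of all genes).

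The members' promoters were searched for 3 letter patterns in the 250 bases before the RefSeq start (GRCh38.p14, both strands). RefSeq gave an entry for 25 of 27 members, which made 24 distinct promoters, since TIMM23B and its readthrough share one. The core of the ETS family's site, CCGGAAG, was found in 10 of 24 (41.7%), against 8.48% of all 34943 promoters and 10.6% of those of protein-coding genes. The pattern of NRF1, nuclear respiratory factor 1, which is known for controlling nuclear genes of mitochondria, was found in 5 of 24 (20.8%). It was found in 5.04% of all promoters and 6.51% of those of protein-coding genes. The E-box CACGTG was found in 1 of 24 (4.17%), against 6.32% of all and 7.35% of those of protein-coding genes. These are matches of letters and not sites of binding. Whether members with a match changed otherwise than members without one was not tested.

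The promoters of 3 members are printed, because TOMM40 and TIMM10 fell furthest between day 1 and day 3 after the readthrough, and TOMM7 changed most with DOX among members past the threshold. Each is the 250 bases before the start, on the gene's own strand, with the NRF1 match (TOMM7 and TOMM40) or the ETS matches (TIMM10) in capitals. The NRF1 pattern searched is the run in capitals of TOMM40, with any base allowed after its first A, and TOMM7 holds it on the other strand. TOMM7 lies at chr7:22822850-22823099 (minus strand), TOMM40 at chr19:44891004-44891253 (plus strand) and TIMM10 at chr11:57530755-57531004 (minus strand).
TOMM7: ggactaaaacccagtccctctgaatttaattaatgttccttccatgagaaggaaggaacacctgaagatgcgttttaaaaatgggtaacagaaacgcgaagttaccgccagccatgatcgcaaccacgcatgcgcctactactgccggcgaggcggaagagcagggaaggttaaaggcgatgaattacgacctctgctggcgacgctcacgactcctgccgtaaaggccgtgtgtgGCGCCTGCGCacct
TOMM40: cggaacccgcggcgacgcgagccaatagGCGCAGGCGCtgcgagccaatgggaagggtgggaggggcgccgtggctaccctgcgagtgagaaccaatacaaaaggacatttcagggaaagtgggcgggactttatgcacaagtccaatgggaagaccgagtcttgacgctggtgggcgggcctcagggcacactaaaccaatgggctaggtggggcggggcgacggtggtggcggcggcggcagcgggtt
TIMM10: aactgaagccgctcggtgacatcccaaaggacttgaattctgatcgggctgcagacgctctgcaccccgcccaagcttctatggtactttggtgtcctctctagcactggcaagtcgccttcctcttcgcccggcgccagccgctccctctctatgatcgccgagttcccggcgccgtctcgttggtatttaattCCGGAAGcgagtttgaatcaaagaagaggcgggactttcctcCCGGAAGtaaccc

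The next question was whether lowering ZBTB11 changed the members beyond what DOX did in the sgNS line. The net change is the mean log2 DOX change of the 2 ZBTB11 lines minus that of sgNS. For ZBTB11 itself it was -0.26 at 5 hr (adjusted p = 0.000447) and -0.32 at day 1 (0.0545, not past the threshold). It was -0.56 at day 3 and -0.50 at day 5, both past the threshold. At day 1 a few members were lower with DOX in every line, sgNS included. None was called in any line on log2(TPM + 1), and none in sgZBTB11 #2 or sgNS with trends on length and GC content removed. In sgZBTB11 #1 with DOX 4 members were lower and 0 higher (4.84% of all 16275 genes were called and 3.2% were lower), in sgZBTB11 #2 3 and 0 (7.88%, 4.45% lower), and in sgNS 2 and 0 (2.19%, 1.63% lower). TOMM40 and TIMM50 were lower in all 3 lines.

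At day 1 TOMM40 had 136, 131 and 139 CPM with DOX against 161, 153 and 164 CPM with DMSO in sgZBTB11 #1. In sgZBTB11 #2 it had 133, 146 and 138 CPM with DOX against 147, 161 and 158 CPM with DMSO. In sgNS it had 157, 146 and 144 CPM with DOX against 174 and 170 CPM with DMSO. DOX libraries lay below DMSO libraries in each line, with log2 changes of -0.21 (SE 0.04, adjusted p = 0.00137), -0.15 (0.0219) and -0.19 (0.0195) in the same order. TIMM50 changed by -0.12 (0.0134), -0.11 (0.0187) and -0.13 (0.0294). The other calls were TOMM20 and TOMM6 in sgZBTB11 #1 (-0.13, 0.00137, and -0.13, 0.0275) and TIMM44 in sgZBTB11 #2 (-0.19, 0.00509). Only TOMM40 and TOMM20 in sgZBTB11 #1 kept their calls when any 1 of the 17 libraries was left out. In sgZBTB11 #1 TIMM50 was not called without DMSO replicate 1 or DOX replicate 3 (adjusted p up to 0.0656), nor TOMM6 without any 1 of DMSO replicates 1 and 3 and the 3 DOX replicates (up to 0.138). In sgZBTB11 #2 TIMM44 was not called without DMSO replicate 2 (0.0864), TIMM50 without DMSO replicate 2 or DOX replicate 1 or 2 (up to 0.067), and TOMM40 without DMSO replicate 2 or 3 or DOX replicate 1 or 3 (up to 0.131). In sgNS neither call held without either DMSO replicate, and TIMM50 was also lost without DOX replicate 1 and TOMM40 without DOX replicate 2 or 3 (up to 0.25). No member was called in both ZBTB11 lines and not in sgNS, at this or any other time.

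Net of sgNS no member passed at day 1, where 0.0737% of all genes did, and DESeq2 also called 0. The smallest p-values in edgeR's test belonged to TIMM29 (-0.26, SE 0.13, adjusted p = 0.762), TIMM22 (-0.14) and TOMM22 (-0.11), none of which passed. TIMM29 was the only member with an unadjusted p under 0.05. It had 12.5, 15.6 and 12.9 CPM with DOX against 16.9, 14.1 and 16.1 CPM with DMSO in sgZBTB11 #1, and 13.2, 14.8 and 13.4 CPM against 13.1, 15.6 and 16.5 CPM in sgZBTB11 #2. In sgNS it had 15.2, 13.7 and 16.5 CPM with DOX against 14.3 and 13.8 CPM with DMSO. The groups overlapped in all 3 lines.

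At day 3, when ZBTB11 itself was lower in both ZBTB11 lines, no member passed in any line (0.733%, 1.17% and 0.877% of all 16645 genes were called in sgZBTB11 #1, sgZBTB11 #2 and sgNS) or net of sgNS (0.493%). An unadjusted p under 0.05 was held by 2, 4 and 1 members in the same order of lines and by 3 net of sgNS, and DESeq2 called 0 in each. Counts at an unadjusted p, here and at other times, are given without the share of all genes. They are therefore not read as a result about the members. TOMM6 stood at -0.14 (SE 0.05, adjusted p = 0.270), TIMM9 at -0.18 (SE 0.07, 0.313) and TIMM50 at -0.11 (0.464). TIMM9 had 32.7, 30.1 and 30.7 CPM with DOX against 33.2, 34.1 and 31.2 CPM with DMSO in sgZBTB11 #1. It had 28.9, 28.3 and 27.8 CPM against 33.6, 32.4 and 31.6 CPM in sgZBTB11 #2, and 29.2, 31.5 and 30.7 CPM against 30.9, 28 and 30.1 CPM in sgNS. DOX and DMSO were apart in sgZBTB11 #2 alone and overlapped in the other lines. In simulated counts of this comparison, changes were given to genes drawn at random above a low level. The test called 26% of those given a log2 change of 0.25, 82% of those given 0.5 and 100% of those given 1. It made 11 false calls over 16426 genes. Most changes of the smallest size were thus missed among the genes drawn. The share for the members, at their own levels, was not simulated.

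**Figure D2:**
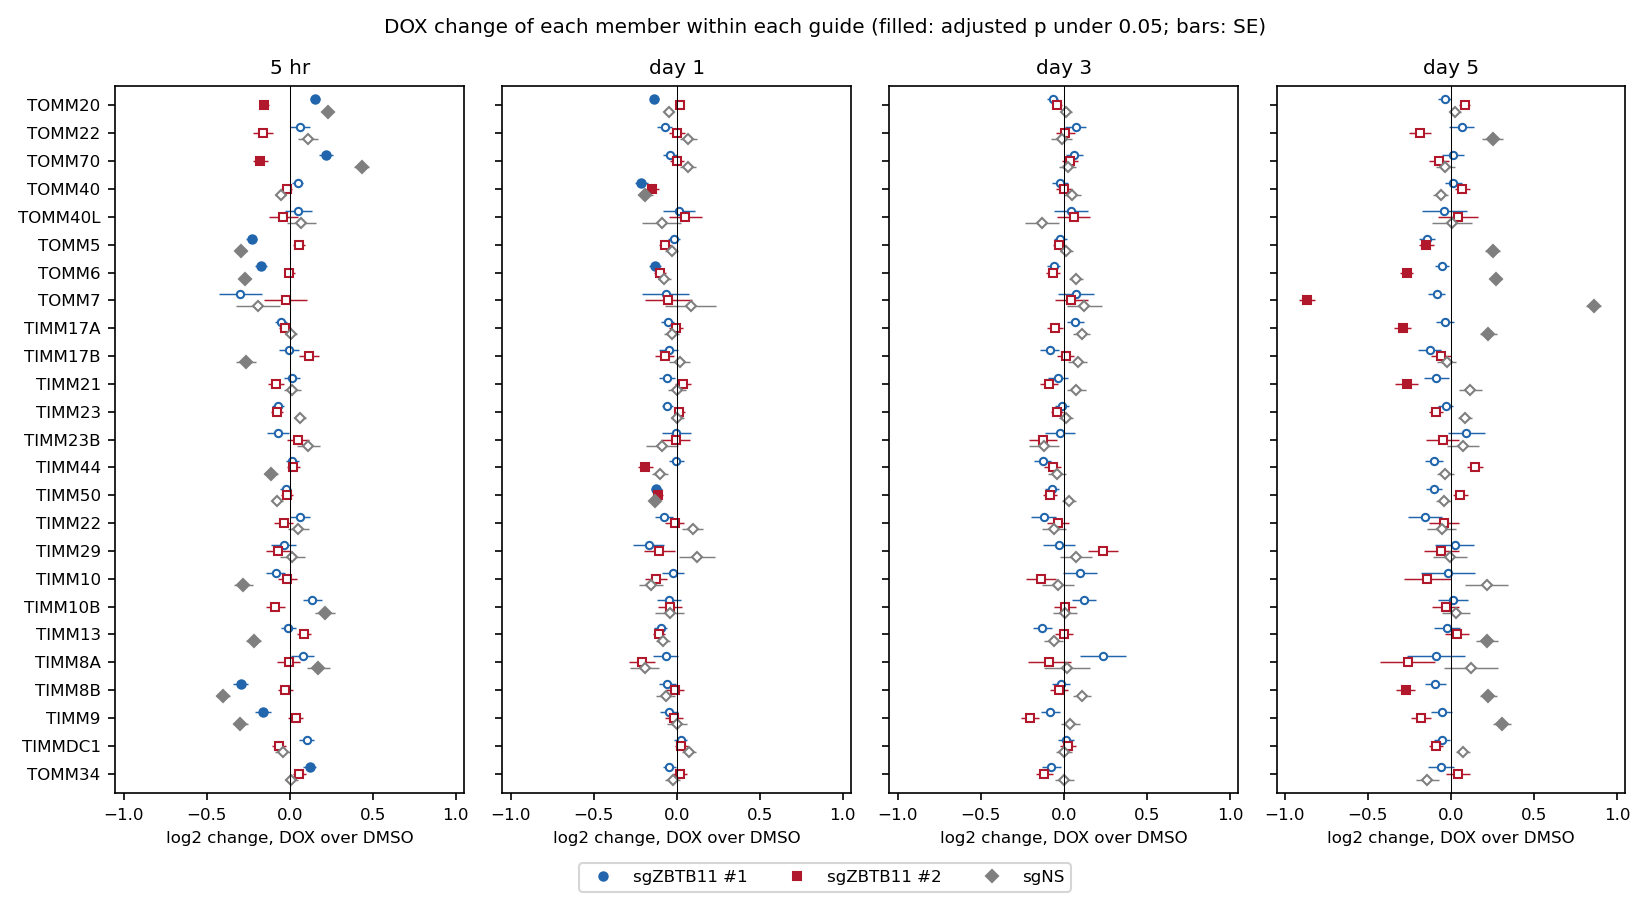
log2 change of DOX over DMSO (x axis) for 25 members in each line at each time, without the readthrough; filled symbols have an adjusted p under 0.05 and bars are the SE. At day 3 every symbol is open. At day 5 the filled symbols of sgNS lie to the right (8 members) and those of sgZBTB11 #2 to the left (6), with TOMM7 at 0.86 and -0.87; on TPM without centring on the median gene sgNS gave 1 higher and 8 lower.

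At day 5 the small TOM subunits, 2 small TIM chaperones, 3 TIM23 genes and the receptor TOMM22 were lower net of sgNS. In all, 9 of 26 members were lower and 0 higher, where 19.2% of all 16809 genes were called and 10.3% were lower. The members' median net change was -0.14, against 0.00 for all genes. The calls covered 3 of 3 small TOM subunits, 3 of 7 TIM23 genes (TIMM17A, TIMM21 and TIMM23), 2 of 6 small TIM chaperones (TIMM9 and TIMM8B), 1 of 3 receptors, 0 of 2 channel genes and 0 of 2 TIM22 genes. The net change had parts from lines that moved in different directions. In sgZBTB11 #1 none passed (1.14% of all genes did), DESeq2 also called 0, and 2 members had an unadjusted p under 0.05, both lower. In sgZBTB11 #2 0 were higher and 6 lower with DOX (9%, 6% lower), and in sgNS 8 were higher and 0 lower (17.3%, 8.87% higher). Of the calls in sgZBTB11 #2, TIMM21 was lost without DMSO replicate 3 (adjusted p = 0.0642) and TOMM5 without DMSO replicate 1 or 3 or DOX replicate 1 or 2 (up to 0.165). Of those in sgNS, TIMM13 was lost without DMSO replicate 1 or DOX replicate 2 (up to 0.144) and TIMM8B without DMSO replicate 3 (0.0522). Among 12 alternative settings, TOMM5 in sgZBTB11 #2 lost its call under 8 (adjusted p up to 0.520), TIMM21 under 2 and TIMM17A under 1. In sgNS TIMM13 lost its call under 6 (up to 0.838) and TIMM8B under 4 (up to 0.932). TIMM17A, TOMM5, TOMM22, TOMM6 and TIMM9 each lost theirs in sgNS under 3, and TOMM7 under 0.

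TOMM7, at which PINK1 is held on damaged mitochondria, moved most among members past the threshold. It had 118, 132 and 122 CPM with DOX against 133 and 131 CPM with DMSO in sgZBTB11 #1. In sgZBTB11 #2 it had 88.1, 90.1 and 87.1 CPM with DOX against 171, 157 and 153 CPM with DMSO. In sgNS it had 193, 206 and 194 CPM with DOX against 106, 116 and 104 CPM with DMSO. The groups were far apart in sgZBTB11 #2 and in sgNS, in opposite directions, and overlapped in sgZBTB11 #1. In sgZBTB11 #1 the log2 DOX change was -0.09 (SE 0.05, adjusted p = 0.569), in sgZBTB11 #2 -0.87 (SE 0.05, 2.08e-12) and in sgNS 0.86 (SE 0.04, 2.81e-13). The net change was -1.34 (SE 0.06, 4.4e-15). The DMSO libraries themselves ran from 104 to 171 CPM across the 3 lines at day 5.

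**Figure D3:**
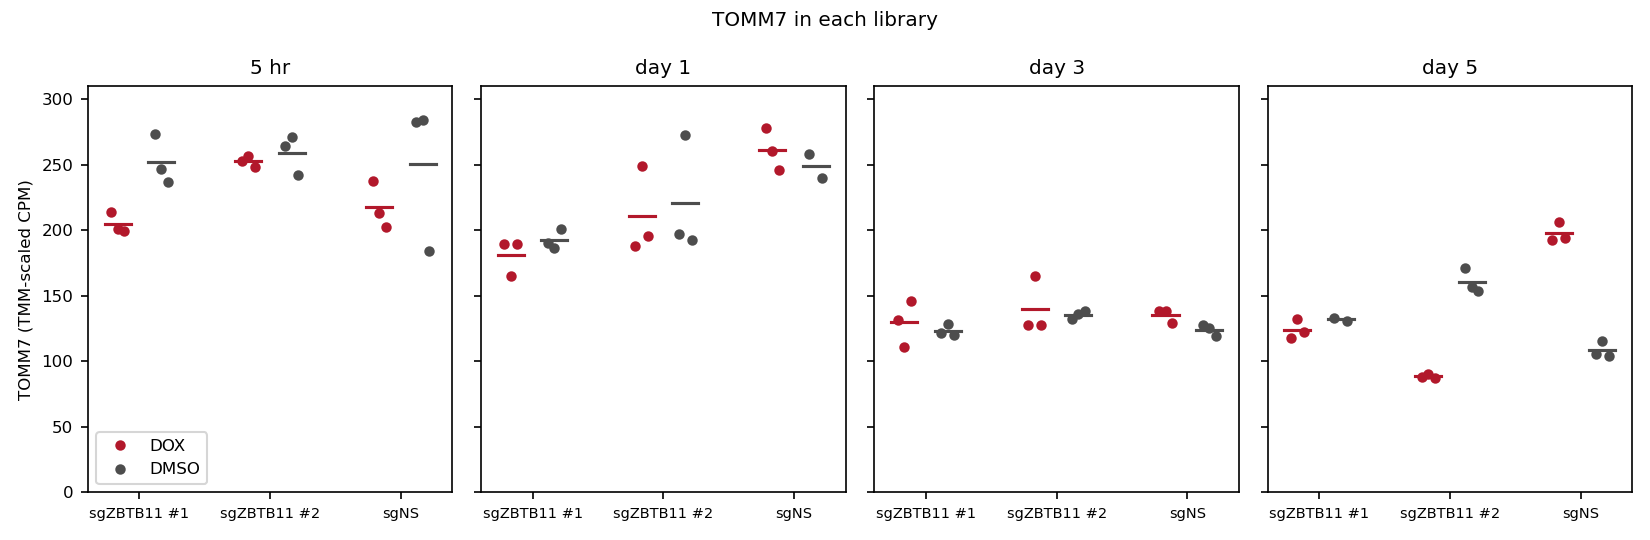
TMM-scaled CPM of TOMM7 in each of the 70 libraries, by time, line and treatment, with a line at each group's mean. At day 5 sgZBTB11 #2 has 87.1 to 90.1 CPM with DOX below 153 to 171 CPM with DMSO, and sgNS has 193 to 206 CPM with DOX above 104 to 116 CPM with DMSO.

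TOMM6 and TOMM5 also lay lower with DOX in sgZBTB11 #2 and higher in sgNS, by less. TOMM6 had 126, 133 and 125 CPM with DOX against 135 and 132 CPM with DMSO in sgZBTB11 #1, and 98.0, 99.6 and 103 CPM against 120, 117 and 124 CPM in sgZBTB11 #2. In sgNS it had 135, 141 and 135 CPM with DOX against 111, 121 and 108 CPM with DMSO. DOX and DMSO were apart in sgZBTB11 #2 and sgNS and overlapped in sgZBTB11 #1, with log2 changes of -0.05 in sgZBTB11 #1, -0.27 (SE 0.04) in sgZBTB11 #2 and 0.27 (SE 0.04) in sgNS. Net of sgNS TOMM6 was lower by 0.43 (SE 0.05, adjusted p = 1.28e-10). TOMM5 had 61.7, 59.7 and 63.2 CPM with DOX against 69.4 and 67.3 CPM with DMSO in sgZBTB11 #1, and 58.4, 56.4 and 61.95 CPM against 66.1, 63.9 and 65.7 CPM in sgZBTB11 #2. In sgNS it had 81.7, 72.6 and 74.8 CPM with DOX against 65.2, 65.4 and 62.2 CPM with DMSO. All 3 lines were apart, sgNS upward, with log2 changes of -0.14 (sgZBTB11 #1, not past the threshold), -0.15 (sgZBTB11 #2) and 0.25 (sgNS), and the net change was -0.40 (1.1e-07).

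Among the TIM23 genes, TIMM17A had 45.9, 43.02 and 46.2 CPM with DOX against 45.2 and 47.7 CPM with DMSO in sgZBTB11 #1. In sgZBTB11 #2 it had 38.2, 37.4 and 41.5 CPM with DOX against 47.3, 48.4 and 47.4 CPM with DMSO, and in sgNS 49.8, 46.9 and 48 CPM against 42.4, 42.2 and 39.5 CPM. DOX and DMSO were apart in sgZBTB11 #2 (-0.29) and sgNS (0.22) and overlapped in sgZBTB11 #1, with a net change of -0.39 (SE 0.06, adjusted p = 3.43e-06).

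The chaperone TIMM9 had 29.6, 30.03 and 31.2 CPM with DOX against 31.3 and 31.97 CPM with DMSO in sgZBTB11 #1. It had 25.98, 26.7 and 25.8 CPM against 30.2, 29.97 and 28.4 CPM in sgZBTB11 #2, and 37.2, 39.3 and 41.5 CPM against 30.6, 33.3 and 31.3 CPM in sgNS. DOX libraries lay below DMSO libraries in both ZBTB11 lines, without passing in either (-0.06, adjusted p = 0.820, and -0.18, 0.0508), and above them in sgNS (0.31, 2.36e-05). Its net change was -0.42 (5.31e-06). TIMM8B had 36.6, 38.8 and 36.3 CPM with DOX against 39.9 and 39.9 CPM with DMSO in sgZBTB11 #1, 35.9, 33.05 and 32.3 CPM against 41.7, 39.8 and 40.8 CPM in sgZBTB11 #2, and 46.2, 51.5 and 46.4 CPM against 42.2, 42.7 and 38.1 CPM in sgNS. It lay lower with DOX in both ZBTB11 lines, higher in sgNS, and had a net change of -0.41 (6e-06).

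The remaining net calls were TOMM22 (-0.31, adjusted p = 0.00315), TIMM21 (-0.29, 0.00923) and TIMM23 (-0.14, 0.0411). TOMM22 had 21.9 to 28.6 CPM in the 6 DOX libraries of the ZBTB11 lines, against 24.5 to 27.7 CPM in their 5 DMSO libraries, and in sgNS 30.9, 31.3 and 30.96 CPM with DOX against 26.3, 26.7 and 25.1 CPM with DMSO. For TOMM22 the treatments were apart upward in sgNS and downward in sgZBTB11 #2, and overlapped in sgZBTB11 #1. The call of TIMM21 was lost without replicate 1 of sgZBTB11 #1 with DMSO, replicate 1 of sgNS with DOX or replicate 3 of sgNS with DMSO (adjusted p up to 0.080), and that of TIMM23 when any 1 of 10 of the 17 libraries was left out (up to 0.202). Members without a call at day 5 included both TIM22 genes (net -0.04 and -0.01) and TOMM40, whose log2 changes with DOX were 0.01 (sgZBTB11 #1), 0.07 (sgZBTB11 #2) and -0.06 (sgNS). The readthrough TIMM23B-AGAP6 had the lowest fitted net value of all (-2.90) on 0.0622 to 3.47 CPM, and did not pass.

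**Figure D4:**
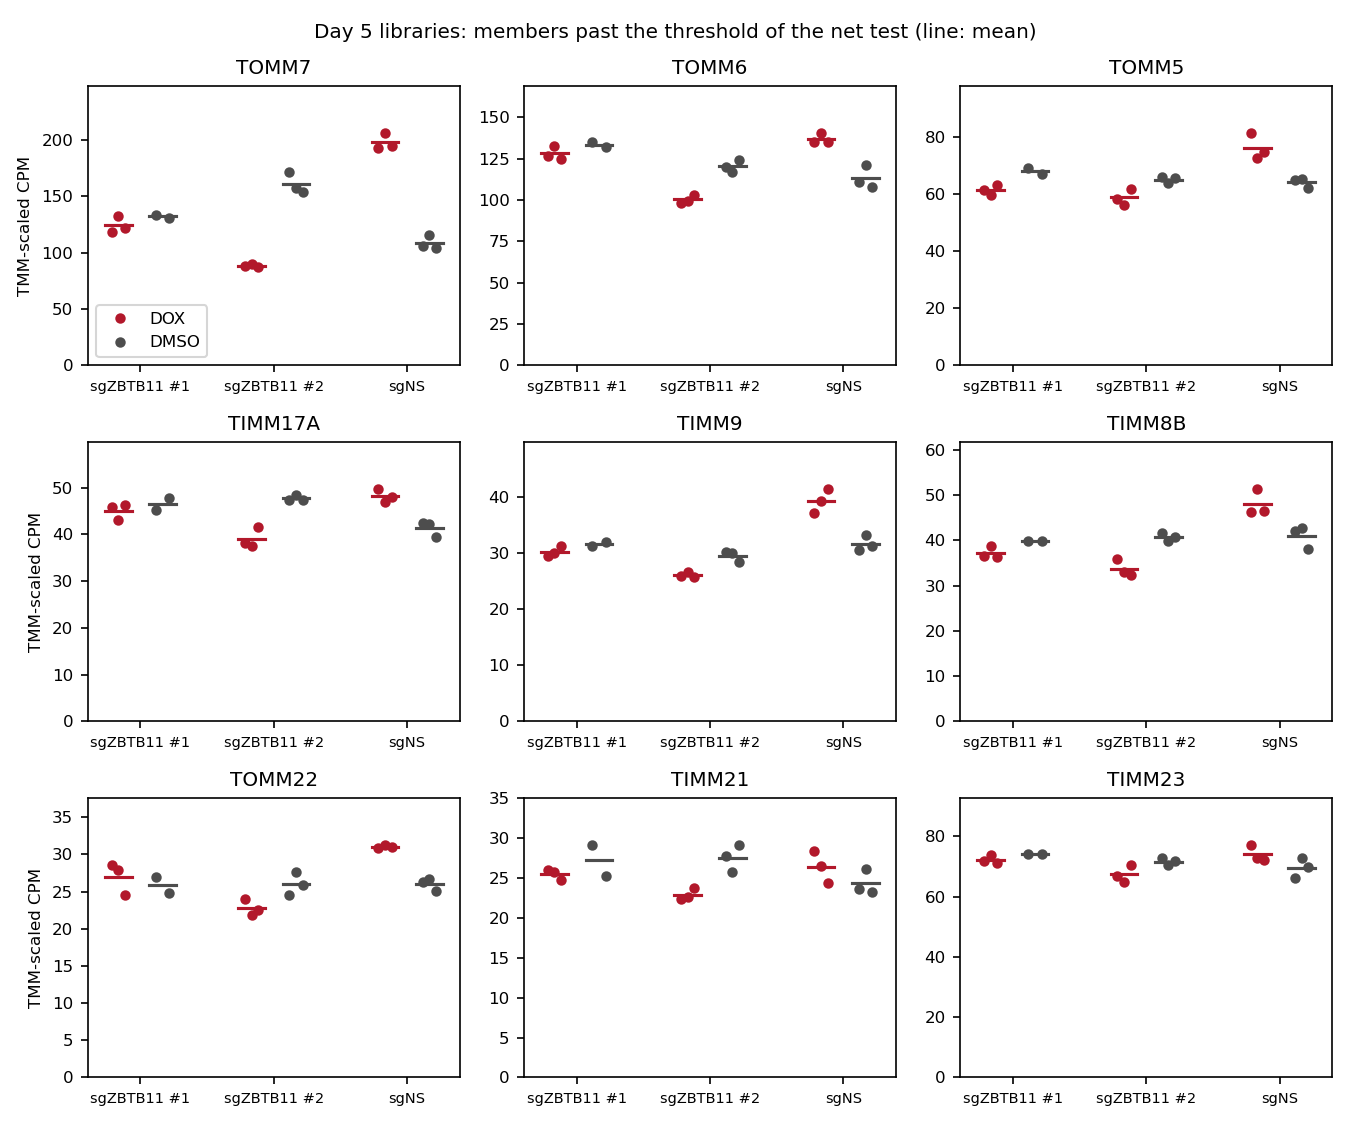
TMM-scaled CPM at day 5 of the 9 members past the threshold of the net test, in each library by line and treatment, with a line at each group's mean. In sgNS the DOX points of TOMM7, TOMM6, TOMM5, TIMM17A, TIMM9, TIMM8B and TOMM22 lie above the DMSO points, and in sgZBTB11 #2 they lie below them; TIMM21 and TIMM23 overlap in sgNS.

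Length and scale moved with these values. The small TOM subunits are among the shortest transcripts, and with a smooth trend on transcript length removed TOMM7 stood at -1.14, TOMM6 at -0.27 and TOMM5 at -0.26, all past the threshold, while TIMM21 (-0.20, adjusted p = 0.103) and TIMM23 (-0.08, 0.326) were no longer called. On log2(TPM + 1) with limma the median gene itself was 0.19 higher net of sgNS and 0.16 lower in sgNS with DOX, and 5 members were higher and 4 lower net, and 1 higher and 8 lower in sgNS. With each library centred on its median gene 0 were higher and 8 lower net, and 7 higher and 0 lower in sgNS. The net change of TOMM7 kept its sign and call under all 12 settings and in all 17 fits that left out 1 library. Over all of these it ran from -1.38 to -1.10, with values on filtered TPM taken relative to the median gene.

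**Figure D5:**
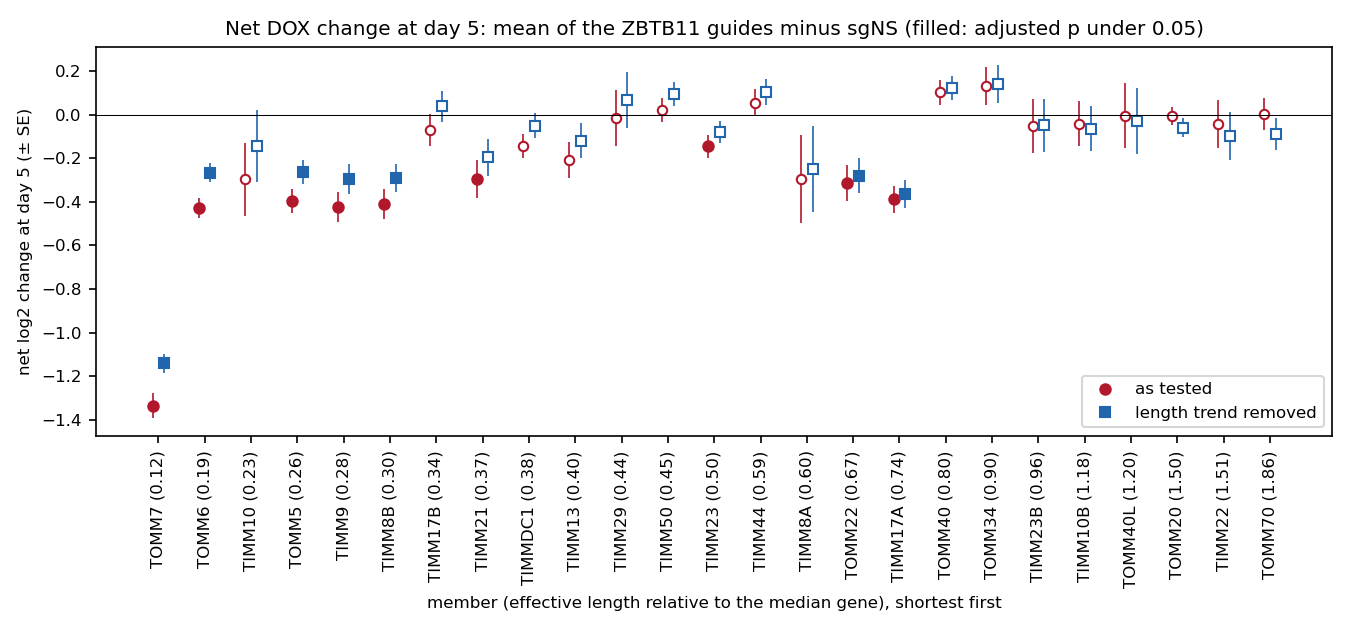
Net log2 change at day 5 (y axis, bars for the SE) of 25 members ordered by transcript length relative to the median gene, as tested and with the length trend removed; filled symbols have an adjusted p under 0.05. TOMM7, the shortest, lies at -1.34 and -1.14, and TIMM21 and TIMM23 are filled as tested and open with the trend removed. On TPM without centring 5 members were higher and 4 lower.

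The lines with the 2 ZBTB11 guides differed from each other at day 5. The DOX change of sgZBTB11 #2 minus that of sgZBTB11 #1 was -0.78 for TOMM7 (adjusted p = 1.43e-07) and -0.21 for TOMM6 (0.0210), with 0 members higher and 2 lower where 2.58% of all genes were called and 1.78% were lower. At day 1 edgeR called no member in this comparison (2 had an unadjusted p under 0.05), where 0.0614% of genes passed, and at day 3 again none (0 at an unadjusted p under 0.05), where 0.018% did. DESeq2 called 0 at both times. At day 5 TOMM6 lost its call without DMSO replicate 1 or 2 or DOX replicate 2 of sgZBTB11 #1, or DMSO replicate 3 or DOX replicate 1 or 2 of sgZBTB11 #2 (adjusted p up to 0.112).

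The net change itself shifted between day 3 and day 5. It was lower at day 5 for 5 members and higher for 0, where 6% of all 18061 genes were called and 3.68% were lower. All 3 small TOM subunits were among the 5, with differences of -1.28 (SE 0.21, adjusted p = 2.22e-05) for TOMM7, -0.37 (5.06e-05) for TOMM5 and -0.30 (0.00143) for TOMM6, beside TOMM22 (-0.38, 0.0386) and TIMM17A (-0.30, 0.0229). The call of TIMM17A was lost in 6 of the 52 fits that left out 1 library (adjusted p up to 0.0891) and that of TOMM22 in 18 (up to 0.099). At day 3 TOMM7 had 111 to 165 CPM in all 18 libraries, and its net change there was -0.06 (SE 0.13, 0.910). On TPM the median gene shifted by 0.12 in this comparison, and 2 members were higher and 2 lower, or 0 and 6 after centring. For net change at day 3 minus day 1 edgeR and DESeq2 called no member and 0 had an unadjusted p under 0.05, where 0.172% of genes passed.

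At 5 hr the net change of ZBTB11 was -0.26, with -0.00 in sgZBTB11 #1, -0.17 in sgZBTB11 #2 and 0.17 in sgNS. Some members were called in each line. Their shares lay below those of all genes in the ZBTB11 lines (26.9% and 7.69% of members) and near them in sgNS (46.2%). Higher and lower calls with DOX numbered 3 and 4 in sgZBTB11 #1, where 32.8% of all 15623 genes were called (17.4% higher and 15.4% lower), and 0 and 2 in sgZBTB11 #2 (17%, 8.67% lower). In sgNS they numbered 4 and 8 (40.9%, 20.9% higher and 20.1% lower). Net of sgNS 7 members were higher and 4 lower (30%, 14.7% and 15.2%). The DOX change itself was higher in sgZBTB11 #2 than in sgZBTB11 #1 for 4 members and lower for 5 (35.1%, 16.7% and 18.4%). In sgNS all 6 small TIM chaperones passed, 4 of them lower. TIMM8A lost this call in 5 of the 18 fits that left out 1 library (adjusted p up to 0.211) and under 4 of 12 alternative settings, and TIMM10 and TIMM13 each lost theirs or changed sign under 6. TIMM8B had 82.0, 78.4 and 77.9 CPM with DOX against 108, 112 and 97.9 CPM with DMSO (-0.40, adjusted p = 1.47e-09).

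The receptors TOMM70 and TOMM20 were called in all 3 lines at 5 hr, lower with DOX in sgZBTB11 #2 and higher in the others. TOMM70 had 75.3, 73.5 and 70.4 CPM with DOX against 64.2, 60.97 and 63.5 CPM with DMSO in sgZBTB11 #1, and 59.8, 61.7 and 60.01 CPM against 70.9, 70.7 and 65.3 CPM in sgZBTB11 #2. In sgNS it had 75.6, 72.7 and 70.9 CPM with DOX against 56.6, 52.3 and 56 CPM with DMSO. DOX libraries were all above DMSO libraries in sgZBTB11 #1 (0.22) and sgNS (0.43) and all below in sgZBTB11 #2 (-0.18). TOMM20 changed by 0.15, -0.16 and 0.23 in sgZBTB11 #1, sgZBTB11 #2 and sgNS. These 2 genes were chosen for mention at this time after their values were seen. The splits at 5 hr changed with the scale. In sgNS 4 higher and 8 lower became 8 and 2 with the length trend removed and 13 and 3 on TPM, where the median gene was 0.17 higher, or 3 and 9 after centring. On TPM sgZBTB11 #1 had 6 and 2 and the guide difference 1 and 7, or 3 and 4 and 5 and 2 after centring. The net split moved from 7 higher and 4 lower to 1 and 5 with the length trend removed and to 0 and 8 on TPM, where the median gene was 0.13 lower, or 8 and 4 after centring.

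Of the 28 import partners, 1 passed net of sgNS at day 3, where 0.493% of all genes did. This was AGK, an acylglycerol kinase that is also a subunit of the TIM22 complex. At day 3 it had 27.1 to 28.1 CPM with DOX against 32.1 to 34.6 CPM with DMSO in sgZBTB11 #1, 22.9 to 25.1 CPM against 34.3 to 34.95 CPM in sgZBTB11 #2, and 34.4 to 34.96 CPM against 31.1 to 34.6 CPM in sgNS. DOX lay below DMSO in both ZBTB11 lines, with log2 changes of -0.26 (SE 0.06, adjusted p = 0.0106) and -0.54 (SE 0.05, 3.78e-09), and overlapped in sgNS (0.09, 0.526). The net change was -0.49 (SE 0.07, 2.15e-05). The call in sgZBTB11 #1 was lost without replicate 3 of its DMSO or of its DOX libraries (up to 0.0838). It was also lost under 5 of 12 alternative settings (up to 0.216), and the net call under 1 (0.0545). The TIM22 members TIMM22 and TIMM29 had net changes of -0.02 to 0.03 at the same time and did not pass.

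At day 5 AGK had 24.8 to 26.6 CPM with DOX against 31.9 and 34.5 CPM with DMSO in sgZBTB11 #1, 19.6 to 22.1 CPM against 28.9 to 33.6 CPM in sgZBTB11 #2, and 29.2 to 31.3 CPM against 29.1 to 30.3 CPM in sgNS. The changes were -0.37 (adjusted p = 0.00163, lost without replicate 2 of sgZBTB11 #1 with DMSO at 0.113), -0.59 (8.37e-10) and 0.05 (0.671), and the net change was -0.53 (SE 0.08, 4.31e-07). The call of AGK in sgZBTB11 #1 at day 5 was also lost under 4 of 12 alternative settings (adjusted p up to 0.225). Net of sgNS 3 partners were higher and 9 lower at day 5, where 19.2% of all genes were called and 10.3% were lower. Besides AGK, those with the smallest p-values were HSPA9, the matrix HSP70 of the import motor (-0.26, 2.84e-09), and the outer-membrane channels VDAC2 (-0.37, 2.83e-08) and VDAC3 (-0.27, 3.47e-07). HSPA9 had the opposite sign on TPM. It stood at 0.10 relative to the median gene, and at 0.08 in the fit with each library centred on its median gene. Neither fit called it. VDAC2 and VDAC3 kept their sign but each lost the net call under 3 of 12 alternative settings (adjusted p up to 0.521 and 0.911). AGK at 5 hr had a net change of -0.17 (0.0325), and at day 1 of -0.02 (0.985).

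The lines also differed without DOX. ZBTB11 itself was lower than in sgNS in DMSO libraries of sgZBTB11 #1 (log2 difference -0.11, adjusted p = 0.00331) and of sgZBTB11 #2 (-0.11, 0.0041), averaged over the 4 times. These libraries are the baseline of the DOX changes above. Averaged over the 4 times, DMSO libraries of sgZBTB11 #1 against those of sgNS had 4 members higher and 5 lower (30% of all genes were called, 15% in each direction), and those of sgZBTB11 #2 3 higher and 7 lower (18.8%, 8.68% and 10.2%). In sgZBTB11 #1 TIMM10 (-0.25, adjusted p = 2.08e-05), TIMM17B (-0.18, 4.44e-06) and TIMM13 (-0.15, 2.62e-05) were lower, and TOMM20 (0.16, 2.37e-11), TIMM10B (0.11, 0.0334) and TOMM70 (0.07, 0.0273) higher. In sgZBTB11 #2 TIMM13 (-0.18, 9.52e-07), TOMM5 (-0.09, 0.00021) and TIMM8B (-0.09, 0.0326) were lower, and TIMM10B (0.14, 0.0105), TOMM70 (0.11, 0.000963) and TIMM17A (0.06, 0.0481) higher. TIMM13 kept its call in both lines under all 12 alternative settings and in all 34 fits that left out 1 library. In sgZBTB11 #1 TIMM10B lost its call in 9 of these fits (adjusted p up to 0.208) and TOMM70 in 5 (up to 0.0735), each also under 9 settings. In sgZBTB11 #2 TIMM17A lost its call in 21 (up to 0.132), TIMM8B in 12 (up to 0.187) and TIMM10B in 1 (0.0933). Both comparisons share the sgNS libraries.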

How the data were processed

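Poly(A) RNA of 70 libraries of MIA PaCa-2 lines was measured. The authors deposited estimated counts per gene made with RSEM, with genome build GRCh38.p14, per the submitters' processing notes, and deposited TPM per gene, which is scaled for length and library. No source used here names the aligner, annotation, RSEM version or strand setting, so reads of overlapping, antisense or near-identical genes, such as the TIMM and TOMM pseudogenes, cannot be told apart. 5.13% of the deposited estimated counts were not whole, and they were rounded. Columns were matched to samples by title, and groups follow the titles.

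Rounded counts were tested in R 4.3.3 with edgeR 4.0.16 (filterByExpr, TMM, robust quasi-likelihood test, Benjamini-Hochberg adjustment over all genes tested, threshold 0.05), with a fit per time for DOX, a fit of the DMSO libraries for time and line, and a fit of all 70 for differences of net change between times. CPM are TMM-scaled over all libraries. The net change is the mean of the DOX changes of both ZBTB11 guides minus that of sgNS. Alternatives were DESeq2 1.42.0, limma 3.58.1 on log2(TPM + 1) or log2(TPM + 0.1), no filter on low counts, a block for the replicate number, 1 fit of all libraries, each library left out, and smooth trends on transcript length, or length and GC content, removed. The last of these and the centring of TPM on the median gene were chosen after the data were seen. On simulated counts with 200 changed genes the test was checked before use. Library totals limit precision to the counts given, and all 68 pairs of libraries within groups differed by more than sampling noise (lowest chi-square per degree of freedom 1.33).

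Promoters came from RefSeq, GRCh38.p14. The members and lists were chosen with earlier results of these data known. Named with values for each library were the members past the net threshold at days 1, 3 and 5 (up to 6 by adjusted p, or the 3 smallest p where none passed) and members called alike in both ZBTB11 guides and not in sgNS; for time and line, the 3 largest changes in each direction; of import partners, up to 4 by net adjusted p at days 3 and 5. Same-numbered libraries mostly did not deviate together (correlations -0.107 to 0.138), so replicate numbers were not taken as pairs. Among DOX and DMSO libraries of the same line, time and number, correlations were highest in sgZBTB11 #2 at day 1 (0.038, 0.138 and 0.063 for replicates 1, 2 and 3).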

Additional observations from a re-analysis of the deposited data

Results flagged for a closer look

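The DOX changes of the lines with the 2 ZBTB11 guides differed from each other by edgeR's test of the difference (sgZBTB11 #2 minus sgZBTB11 #1). At 5 hr this held for TOMM70 (-0.40), TOMM20 (-0.31), TOMM22 (-0.23), TIMM10B (-0.22) and TIMMDC1 (-0.17) and, with the opposite sign, TOMM5 (0.28), TIMM8B (0.27), TIMM9 (0.20) and TOMM6 (0.17). When 1 library was left out, TOMM22 lost its call in 11 of 18 fits (adjusted p up to 0.113), TIMM10B in 4 (0.0820), TIMMDC1 in 3 (0.130) and TIMM9 in 2 (0.0570). TIMM10B also lost it under 9 of 12 alternative settings, TIMMDC1 lost it under 3 and changed sign under 3, and DESeq2 called 3 members higher and 2 lower. At day 5 it held for TOMM7 (-0.78) and TOMM6 (-0.21).

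The net change differed between day 5 and day 3 for TOMM7 (-1.28), TOMM22 (-0.38), TOMM5 (-0.37), TOMM6 (-0.30) and TIMM17A (-0.30), all lower at day 5 by the test of the difference in the fit of all libraries. Groups held at most 3 libraries, so no single library was tested as standing apart from its group.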

How the results depend on the processing

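Of 3904 alternative values for 112 results of single members, 3387 kept direction and side of the threshold, 501 kept the direction but lost the threshold and 16 reversed; for import partners it was 395, 29 and 14 of 438 (15 results). For this, the median gene's change was taken off a value where it was over 0.1 in size. The adjusted p stayed that of the fitted change. Values on different TPM scales can therefore differ in this. TIMM44 at day 1 against 5 hr, given as -0.016 on log2(TPM + 0.1), is relative to the median gene, and its fitted change was called (adjusted p = 0.000473). Counts of called members follow, for sgZBTB11 #1, sgZBTB11 #2, sgNS, net, the guide difference (sgZBTB11 #2 minus #1) or a time or line comparison. DESeq2 called 5 for the guide difference at 5 hr, 2, 1 and 1 for sgZBTB11 #1, sgZBTB11 #2 and sgNS at day 1, and 1 for the guide difference at day 5. Without the filter on low counts sgNS at day 1 had 1. On log2(TPM + 1) and log2(TPM + 0.1) each line had 0 at day 1 and the guide difference at day 5 had 1. On unfiltered TPM sgZBTB11 #2 at 5 hr had 1, net at 5 hr 7, the guide difference at 5 hr 4, each line at day 1 0, sgZBTB11 #2 at day 5 3, the guide difference at day 5 1, sgZBTB11 #2 against sgNS 6, and net at day 5 minus day 3 3. On median-centred TPM it was 2, 1 and 0 for the lines at day 1 and 1 for the guide difference at day 5. With the length trend removed it was net at 5 hr 6, sgZBTB11 #1 at day 1 2 and sgZBTB11 #2 at day 3 1. With that trend removed and the replicate block it was sgZBTB11 #2 at 5 hr 4, net at 5 hr 7, the lines at day 1 2, 1 and 1, and sgZBTB11 #2 at day 3 1. With the length and GC trend removed it was sgZBTB11 #2 at 5 hr 1, net at 5 hr 6, the lines at day 1 2, 0 and 0, and the guide difference at day 5 1. In 1 fit of all 70 libraries sgZBTB11 #2 at day 3 had 1. The replicate block alone left net at day 5 at 9 lower and changed no count by over 1.5 times. Reversed values were, with the length and GC trend removed, TIMM17B 0.033, TIMM13 0.10 and TIMM44 0.10 in sgNS and TIMM13 net -0.038, all at 5 hr; with the length trend removed, TOMM6 in the guide difference at 5 hr (-0.012, and -0.013 with the block); and on TPM scales TIMMDC1 in the same difference (0.030, 0.046 and 0.045), TIMM50 net at day 3 (0.063, 0.064 and 0.063), TIMM23 net at day 5 (0.10), TIMM44 at day 1 against 5 hr (-0.016 and -0.047), TOMM6 at day 5 against day 3 (-0.0018), and at day 5 HSPA9 in sgZBTB11 #2 (0.23 and 0.19), sgNS (-0.060, -0.033, -0.22 and -0.039) and net (0.10, 0.074, 0.29 and 0.078), VDAC3 in sgNS (-0.057) and VDAC2 in sgNS (-0.023); the cause was not tested. Leaving out 1 library gave, at 5 hr, 6 to 8 in sgZBTB11 #1, 2 to 4 in sgZBTB11 #2 (4 without its DMSO replicate 3), 10 to 12 in sgNS, 9 to 12 net and 6 to 9 for the guide difference. At day 1 it gave 2 to 4 (2 without DMSO replicate 1 or DOX replicate 3), 0 to 4 (0 without DMSO replicate 2, 1 without DOX replicate 1) and 0 to 2 in the lines (0 without either DMSO replicate of sgNS, 1 without any of its DOX replicates), 0 net and 0 to 1 for the guide difference (1 without DMSO replicate 1 of sgZBTB11 #2). At day 3 it gave 0 throughout, but 1 in sgZBTB11 #2 without DMSO replicate 3 of sgZBTB11 #1 or DMSO replicate 1 of sgNS. At day 5 it gave 0, 4 to 8 and 7 to 8 in the lines, 7 to 11 net and 1 to 4 for the guide difference (1 without either DMSO replicate of sgZBTB11 #1, or DMSO replicate 3, DOX replicate 1 or DOX replicate 2 of sgZBTB11 #2; 4 without DOX replicate 3 of sgZBTB11 #2 or DMSO replicate 2 of sgNS). It gave 19 to 22, 25 to 26 and 19 to 21 for the times, 6 to 10 and 6 to 11 for the lines against sgNS (6 in sgZBTB11 #2 without its DMSO replicate 1 of day 1 or DMSO replicate 1 of sgNS at day 3), and 3 to 5 for net at day 5 minus day 3 (3 without DMSO replicate 3, DOX replicate 1 or DOX replicate 3 of sgNS at day 3, or DMSO replicate 3 or DOX replicate 1 of sgNS at day 5). Libraries of 5 hr were not left out for differences of net change between times, where 1 fit of all libraries is the test itself. In groups of 2 the lone remaining library is assumed to vary like the others.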
